A study of Mus musculus with 2 samples.

Results

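The 33 genes described here encode the glucose transporter and enzymes of glycolysis, the lactate transporters, the kinases that set the flux through the pathway, and regulators and targets of the hypoxia-inducible factor HIF. They were chosen by name, and all 33 were found among the 49492 gene symbols of the deposited tables. RNA sequencing covered 1 library of Nestin+ cells from heart and 1 from bone marrow of Nestin-GFP transgenic C57BL/6 mice 7 days old, both cultured to passage 10. The heart cells were grown in a mixture of DMEM/F12 and IMDM with 20 ng/ml EGF, 20 ng/ml of bFGF, cardiotrophin-1 at 4 ng/ml, N2, B27, beta-mercaptoethanol, L-glutamine and antibiotics. The bone marrow cells were grown in another medium, whose make-up the labels do not give, so tissue and medium cannot be told apart. Growth was at 5% CO2 for the heart cells, and no oxygen level is given for either culture. The transgene marks cells in which Nestin regulatory sequence is active, and the labels do not say how many animals or clones each culture came from.

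Glycolysis splits glucose into pyruvate in the cytosol, and cells that reduce pyruvate to lactate export the lactate through monocarboxylate transporters. Under normal oxygen the prolyl hydroxylases of the Egln family mark HIF-1alpha for destruction, and under low oxygen HIF-1alpha persists, pairs with Arnt and binds short sequences near its targets, which include many glycolytic genes. The same pathway is known for its activity in bone marrow, much of which is low in oxygen, while heart muscle takes most of its energy from fatty acids. HIF-1alpha protein is set largely by its stability, so the mRNA level of Hif1a does not measure it.

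The libraries held 64872683 reads for heart and 53999963 for bone marrow, as recovered from the deposited values. Levels are RPKM (reads scaled by gene model length and library size), and each log2 ratio is log2((heart + 1)/(bone marrow + 1)) on RPKM, so that a positive one means higher in heart. Each tissue has a single library and hence neither a replicate spread nor a test, and the 95% intervals on ratios cover counting error in these 2 libraries only. Of 8 mesenchymal stromal markers, 7 in heart and 6 in bone marrow reached 1 RPKM, with sums of 2958 RPKM in heart and 2905 RPKM in bone marrow. These sums are mostly Col1a1 (1751 RPKM in heart and 1777 RPKM in bone marrow) and Col1a2 (978 RPKM in heart and 960 RPKM in bone marrow). Pdgfrb was also alike, at 139 RPKM in heart and 133 RPKM in bone marrow. Pdgfra stood at 27.6 RPKM in heart and 11.6 RPKM in bone marrow. Cd44 lay the other way, at 11.5 RPKM in heart and 20.7 RPKM in bone marrow. The remaining stromal markers were furthest apart. Thy1 stood at 16.7 RPKM in heart and 0.0603 RPKM in bone marrow, Eng at 33.9 RPKM in heart and 0.576 RPKM in bone marrow, and Nt5e at 0.225 RPKM in heart and 1.59 RPKM in bone marrow. Cardiomyocyte markers reached 1 RPKM in 0 of 6 cases in either library, with sums of 0.781 RPKM in heart and 0.914 RPKM in bone marrow. Haematopoietic markers summed to 9.49 RPKM in heart and 5.40 RPKM in bone marrow, with 3 of 7 at or above 1 RPKM in each. Cd53 stood at 4.80 RPKM in heart and 1.03 RPKM in bone marrow, and Cd14 at 2.97 RPKM in heart and 2.79 RPKM in bone marrow. Lyz2 stood at 1.08 RPKM in heart and 1.05 RPKM in bone marrow, and Ptprc at 0 in heart and 0.00469 RPKM in bone marrow. The endothelial list had 0 of 5 markers at or above 1 RPKM in heart and 1 of 5 in bone marrow. Nes itself, the gene that names the cells, stood at 8.74 RPKM in heart and 1.20 RPKM in bone marrow.

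The promoters of 6 members are given because these genes are among those with the largest differences in either direction. Ak4, Ankrd37, Egln3 and Slc2a1 had the highest log2 ratios of the 33, and Eno1, Pgam1 and Ndrg1, which is named only, had the 3 lowest. Each stretch runs from 250 bases before to 50 bases after the RefSeq start on GRCm38.p6, 5′ to 3′ on the gene's strand. They lie at chr4:101419039-101419338 (plus strand), chr8:45999801-46000100 (minus), chr12:54203825-54204124 (minus), chr4:119108495-119108794 (plus), chr4:150236458-150236757 (plus) and chr19:41911621-41911920 (plus). Capitals mark each ACGTG or GCGTG, the core letters of HIF binding sites, on either strand.
Ak4: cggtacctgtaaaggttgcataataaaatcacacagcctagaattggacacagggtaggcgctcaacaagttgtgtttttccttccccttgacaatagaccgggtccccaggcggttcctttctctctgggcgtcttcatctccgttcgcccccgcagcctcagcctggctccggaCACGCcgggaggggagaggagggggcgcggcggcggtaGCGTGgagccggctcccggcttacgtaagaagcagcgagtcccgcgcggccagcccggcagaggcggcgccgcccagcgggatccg
Ankrd37: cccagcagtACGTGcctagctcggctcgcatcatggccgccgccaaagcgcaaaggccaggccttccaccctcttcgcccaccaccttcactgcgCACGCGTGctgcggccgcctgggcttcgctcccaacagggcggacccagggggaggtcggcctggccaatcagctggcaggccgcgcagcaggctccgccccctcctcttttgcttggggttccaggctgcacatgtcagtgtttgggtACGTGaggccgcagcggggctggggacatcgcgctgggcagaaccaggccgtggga
Egln3: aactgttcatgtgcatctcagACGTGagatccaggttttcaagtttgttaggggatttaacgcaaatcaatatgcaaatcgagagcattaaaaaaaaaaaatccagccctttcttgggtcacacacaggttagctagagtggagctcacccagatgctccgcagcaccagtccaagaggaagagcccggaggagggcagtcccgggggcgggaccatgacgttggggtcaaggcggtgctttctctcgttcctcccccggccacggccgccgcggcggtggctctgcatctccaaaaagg
Slc2a1: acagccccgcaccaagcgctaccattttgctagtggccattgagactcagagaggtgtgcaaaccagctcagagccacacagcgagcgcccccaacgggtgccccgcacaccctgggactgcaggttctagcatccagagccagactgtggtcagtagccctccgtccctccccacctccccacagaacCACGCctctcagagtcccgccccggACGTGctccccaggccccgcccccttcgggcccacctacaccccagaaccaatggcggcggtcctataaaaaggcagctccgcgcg
Eno1: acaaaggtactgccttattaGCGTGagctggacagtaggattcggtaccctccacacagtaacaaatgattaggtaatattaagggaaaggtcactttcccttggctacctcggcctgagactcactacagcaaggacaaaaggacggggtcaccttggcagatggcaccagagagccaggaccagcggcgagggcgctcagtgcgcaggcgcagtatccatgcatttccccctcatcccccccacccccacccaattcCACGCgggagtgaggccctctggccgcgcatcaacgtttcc
Pgam1: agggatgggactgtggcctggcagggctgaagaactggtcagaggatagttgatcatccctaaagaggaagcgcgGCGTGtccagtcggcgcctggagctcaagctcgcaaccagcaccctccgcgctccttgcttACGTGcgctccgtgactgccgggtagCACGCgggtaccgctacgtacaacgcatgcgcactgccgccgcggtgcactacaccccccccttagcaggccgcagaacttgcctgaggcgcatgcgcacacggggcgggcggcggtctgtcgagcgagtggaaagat

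These letters were common in promoters in general. ACGTG or GCGTG on either strand occurred in 25 of the 32 member promoters in the RefSeq table (78.1%), taking 1 promoter a gene. The share was 67.2% of 5942 promoters of genes that reached 5 RPKM and 48.4% of 19039 over all matched genes, also at 1 a gene. Counting every listed promoter of the same length, it was 43.8% of 32851. The members include genes below 5 RPKM. ACGTG alone occurred in 18 of 32 member promoters (56.2%), against 27.9% of the promoters of genes that reached 5 RPKM. The longer CACGTG, whose letters contain ACGTG and to which Myc and other E-box factors can bind, occurred in 5 of 32 (15.6%), against 11.4%. In Slc2a1 an ACGTG began 36 bases before the start and a reversed GCGTG 61 bases before it. Ankrd37 held 4 matches, of which an ACGTG began 6 bases before the start. A reversed GCGTG and a GCGTG, 155 and 152 bases before the start of Ankrd37, overlapped, and overlapping matches were counted separately. Eno1 and Pgam1, both higher in bone marrow, held 2 and 3 matches, and Ak4, higher in heart, held 2. The 7 member promoters with no match belong to Hk1, Gpi1, Aldoa, Tpi1, Eno2, Pkm and Mxi1. A match is a description of the letters and no evidence of binding, and 26 of the 32 starts lay within 300 bases of the 5′ end of the deposited gene model. The starts furthest away were those of Aldoa (8661 bases), Hif1a (6492), Ankrd37 (5857) and Ldha (4329).

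Most members were within 2-fold between the libraries. A gene was called higher in heart or in bone marrow when its log2 ratio was at least 1 in size, which is 2-fold, and its level reached 5 RPKM on the higher side. Of 26 members that reached 5 RPKM, 1 was higher in heart, against 7.56% of the 7659 genes at that level, and 3 were higher in bone marrow, against 9.51%. The other 22 were called neither. These shares, 3.85% for heart and 11.5% for bone marrow, are near the background, so the number of 2-fold members is no result about the list. Scaling the libraries by their median ratio shifts log2 ratios of abundant genes up by 0.15. It gave 704 genes higher in heart and 583 in bone marrow, against 579 and 728 as deposited, and 3 members higher in heart and 2 in bone marrow. The median log2 ratio of all 33 was -0.13, and that of the 26 that reached 5 RPKM was -0.23, beside -0.15 over the 7659 genes at that level. The parts of the list lay on either side of that value. The median of the 20 glycolytic step and transport genes was -0.31, or -0.39 over the 19 that reached 5 RPKM. That of the 10 HIF regulators and hypoxia targets was 0.49, or 0.47 over the 7 that reached 5 RPKM. Above the median of the 7659 genes were 7 of the 20 step and transport genes and 8 of the 10 HIF regulators and targets. Of all 21620 genes above 0 in either library, with low ones included, 15473 were above it, a share near that of the HIF regulators and targets. The count of 8 is therefore no result about them, and it includes Egln3, Ankrd37 and Car9, which were under 5 RPKM.

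**Figure D1:**
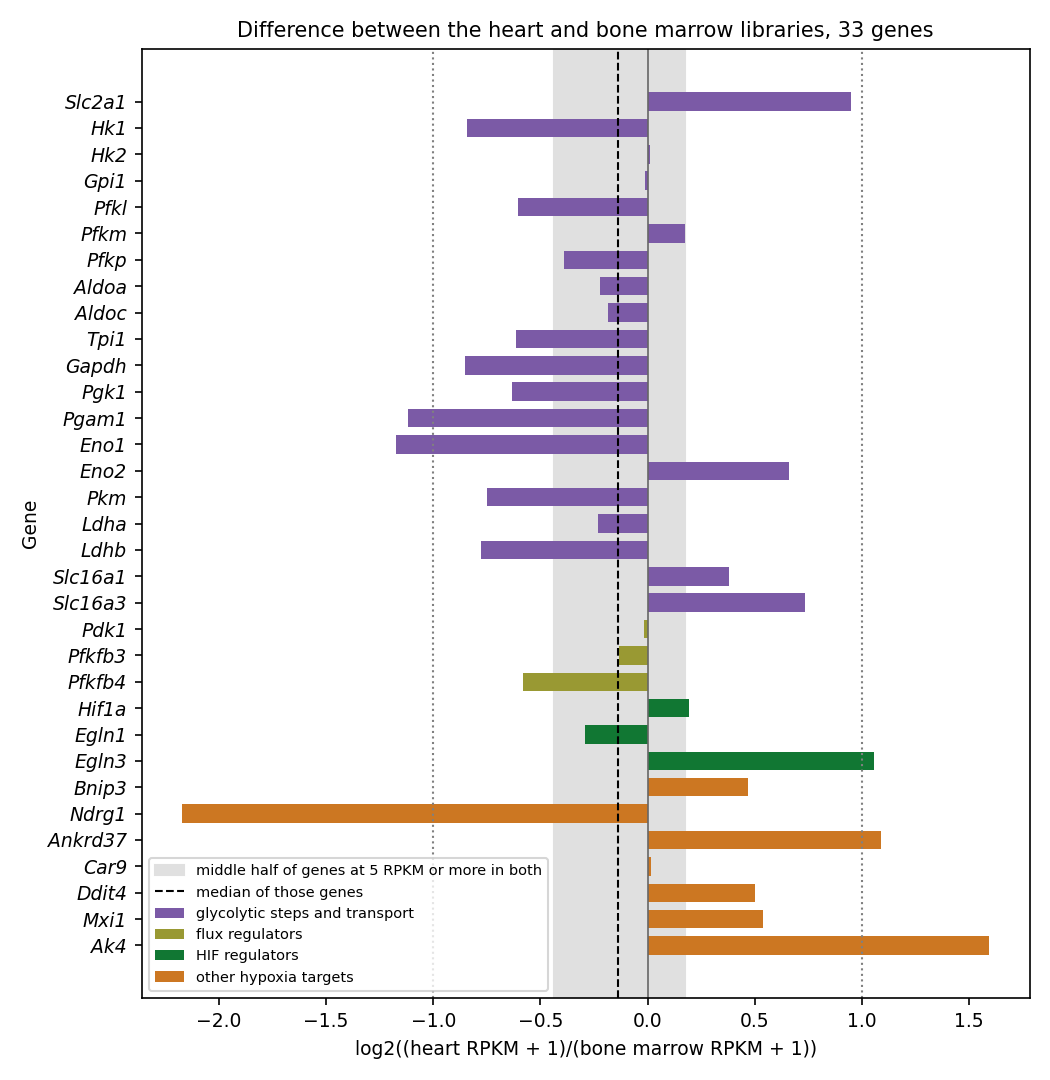
Log2 ratios of the 33 genes (x axis, log2 of heart RPKM + 1 over bone marrow RPKM + 1) by gene (y axis), coloured by role. The dashed line is the median (-0.14) of the 6049 genes that reached 5 RPKM in heart and also in bone marrow, the grey band their quartiles at -0.44 and 0.17, and the dotted lines mark 2-fold; most step genes lie left of the dashed line and most hypoxia targets right of it, with Ndrg1 the furthest left.

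The transporters into and out of glycolysis lay on the heart side. In such bulk libraries, fewer expressing cells and less RNA per cell cannot be told apart. Slc2a1, which encodes the glucose transporter GLUT1, stood at 26.1 RPKM in heart and 13.0 RPKM in bone marrow, from 5931 and 2463 reads. Its unadjusted ratio was 2.00 (95% counting interval 1.91 to 2.10) and its log2 ratio 0.95, just under the 2-fold limit. It passed the limit under each of the 5 other scalings of the libraries, with log2 ratios of 1.02 to 1.09. Slc16a1, which encodes the monocarboxylate transporter MCT1, stood at 14.6 RPKM in heart and 11.0 RPKM in bone marrow, a ratio of 1.33 (1.27 to 1.40). Slc16a3, which encodes MCT4, the transporter linked to lactate export, stood at 6.96 RPKM in heart and 3.79 RPKM in bone marrow, a ratio of 1.84 (1.71 to 1.97). Slc16a3 made up 32.4% of the summed RPKM of the 2 lactate transporters in heart against 25.7% in bone marrow. Both transporters therefore lay on the heart side, and neither reached 2-fold.

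The first enzymes were close to each other in the libraries or lower in heart. Hk1, the widely expressed hexokinase that traps glucose in the cell, stood at 10.1 RPKM in heart and 18.9 RPKM in bone marrow, a ratio of 0.534 (0.516 to 0.552). Hk2, the hexokinase induced by insulin and HIF, stood at 11.4 RPKM in heart and 11.3 RPKM in bone marrow, a ratio of 1.01 whose interval of 0.964 to 1.05 holds 1. Hk2 was therefore 53.0% of the summed hexokinase RPKM in heart against 37.4% in bone marrow, a ratio of ratios of 1.89 (1.79 to 1.99) that does not depend on how the libraries are scaled. Gpi1, which encodes the isomerase that turns glucose 6-phosphate into fructose 6-phosphate, stood at 45.8 RPKM in heart and 46.2 RPKM in bone marrow, and the interval of its ratio, 0.971 to 1.01, also holds 1.

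Phosphofructokinase, the committed step, is made from 3 genes named for liver, muscle and platelet. Pfkl stood at 18.2 RPKM in heart and 28.1 RPKM in bone marrow, Pfkm at 10.7 RPKM in heart and 9.41 RPKM in bone marrow, and Pfkp at 3.76 RPKM in heart and 5.24 RPKM in bone marrow. Pfkl was the most abundant per length in both libraries, with 55.6% of the summed RPKM in heart against 65.8% in bone marrow. Pfkm held 32.9% in heart against 22.0% in bone marrow, while the share of Pfkp differed little, at 11.5% in heart against 12.2% in bone marrow. Aldoa, the main aldolase outside liver and brain, stood at 149 RPKM in heart and 174 RPKM in bone marrow. The brain aldolase Aldoc was represented by 2 reads in heart and 26 in bone marrow, a ratio of 0.0640 (0.00737 to 0.256) at levels far below 1 RPKM.

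**Figure D2:**
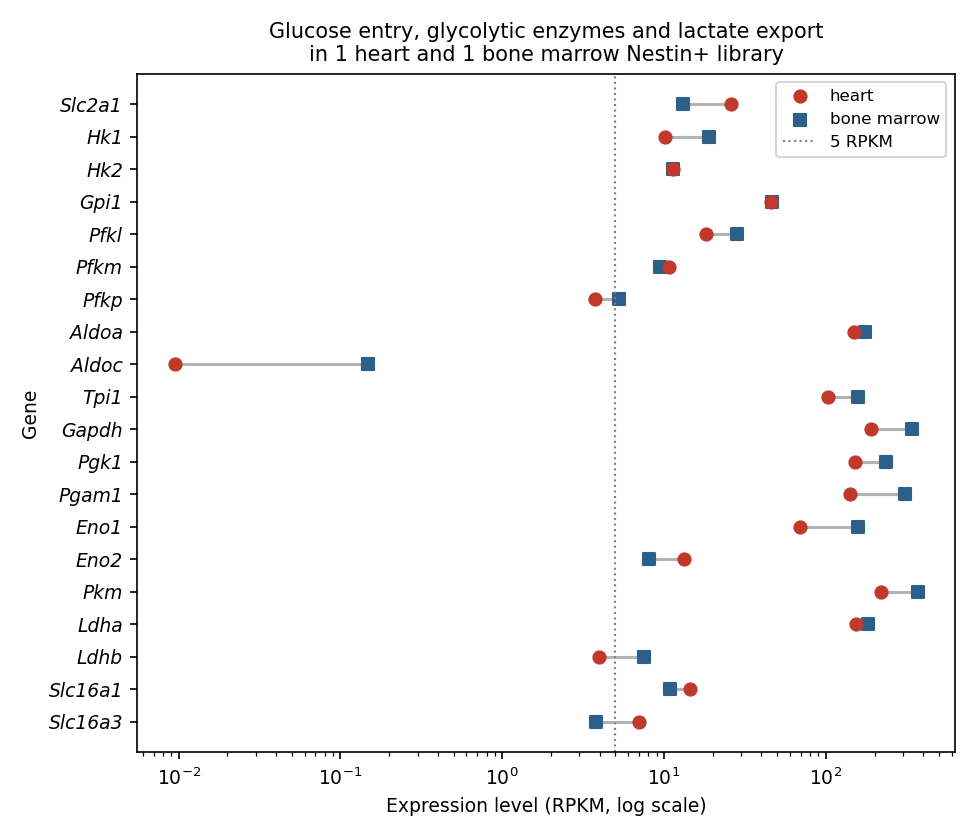
RPKM (x axis, log scale) of the 20 glucose entry, glycolytic and lactate genes in pathway order from top to bottom (y axis), with a circle for the heart library and a square for the bone marrow library. The abundant enzymes from Tpi1 to Pkm lie lower in heart, Eno2 and the transporters Slc2a1, Slc16a1 and Slc16a3 higher in heart; the dotted line is 5 RPKM.

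The abundant enzymes of the lower pathway were all lower in heart. Tpi1, which encodes triose phosphate isomerase, stood at 103 RPKM in heart and 158 RPKM in bone marrow, a ratio of 0.652. Gapdh, the dehydrogenase that yields NADH and is often taken as a constant gene in other assays, stood at 189 RPKM in heart and 342 RPKM in bone marrow, a ratio of 0.552. Pgk1, the first enzyme to return ATP, stood at 151 RPKM in heart and 235 RPKM in bone marrow, a ratio of 0.644 (0.632 to 0.655). These 3 stayed under 2-fold. Pgam1, which encodes phosphoglycerate mutase, stood at 141 RPKM in heart and 308 RPKM in bone marrow, a log2 ratio of -1.12. Eno1, the ubiquitous enolase, stood at 69.3 RPKM in heart and 158 RPKM in bone marrow, from 24173 and 45798 reads, a ratio of 0.439 (0.433 to 0.446) and a log2 ratio of -1.17. Pgam1 and Eno1 were the 2 enzymes past 2-fold, and Pgam1 fell short of it, at -0.97 and -0.98, when the libraries were scaled by the median ratio or by the RPKM sum left after removing mitochondrial genes and the top 20. Pkm, which encodes the muscle-type pyruvate kinases, was the most abundant member in both libraries at 219 RPKM in heart and 369 RPKM in bone marrow, a ratio of 0.593 (0.588 to 0.599). It ranked 147 of all symbols in heart and 82 in bone marrow.

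Grouped after their values were seen, the 5 enzymes Gapdh, Pgk1, Pgam1, Eno1 and Pkm had log2 ratios of -1.17 to -0.63. Together they summed to 770 RPKM in heart and 1412 RPKM in bone marrow, a ratio of 0.545. They made up 0.292% of all RPKM in heart against 0.501% in bone marrow. All 20 step and transport genes summed to 1341 RPKM in heart and 2088 RPKM in bone marrow, a ratio of 0.642, so the sum followed these abundant enzymes. Reads from processed copies can be shared with such genes. Of 11 rows named as copies of a member, 7 were listed at 0 in both libraries and the highest, Eno1b, stood at 0.974 RPKM in heart and 0.970 RPKM in bone marrow. Copies were sought by name only, so those under other names are not covered, and the extent of shared reads was not tested.

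Eno2, the enolase first known from neurons, went the other way from Eno1. It stood at 13.4 RPKM in heart and 8.11 RPKM in bone marrow, from 4084 and 2060 reads, a ratio of 1.65 (1.56 to 1.74). Eno2 was 16.2% of the summed Eno1 and Eno2 RPKM in heart against 4.89% in bone marrow. The ratio of ratios of Eno2 over Eno1 was 3.76 (3.55 to 3.97), the largest among the pairs with recovered reads. On chromosome 6 (GRCm38 gene models), Eno2 (124760053 to 124769673, minus strand) lay 40.9 kb from Tpi1 (124810586 to 124814296, minus strand), and the 2 neighbours had log2 ratios of 0.66 and -0.61. Ldha, the lactate dehydrogenase subunit that favours lactate, stood at 154 RPKM in heart and 181 RPKM in bone marrow, a ratio of 0.852 (0.839 to 0.865). Ldhb, the subunit abundant in heart muscle, stood at 3.97 RPKM in heart and 7.53 RPKM in bone marrow, a ratio of 0.527 (0.464 to 0.598). Ldhb was 2.50% of the summed Ldha and Ldhb RPKM in heart against 3.99% in bone marrow, so Ldha was by far the main subunit gene in both.

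**Figure D3:**
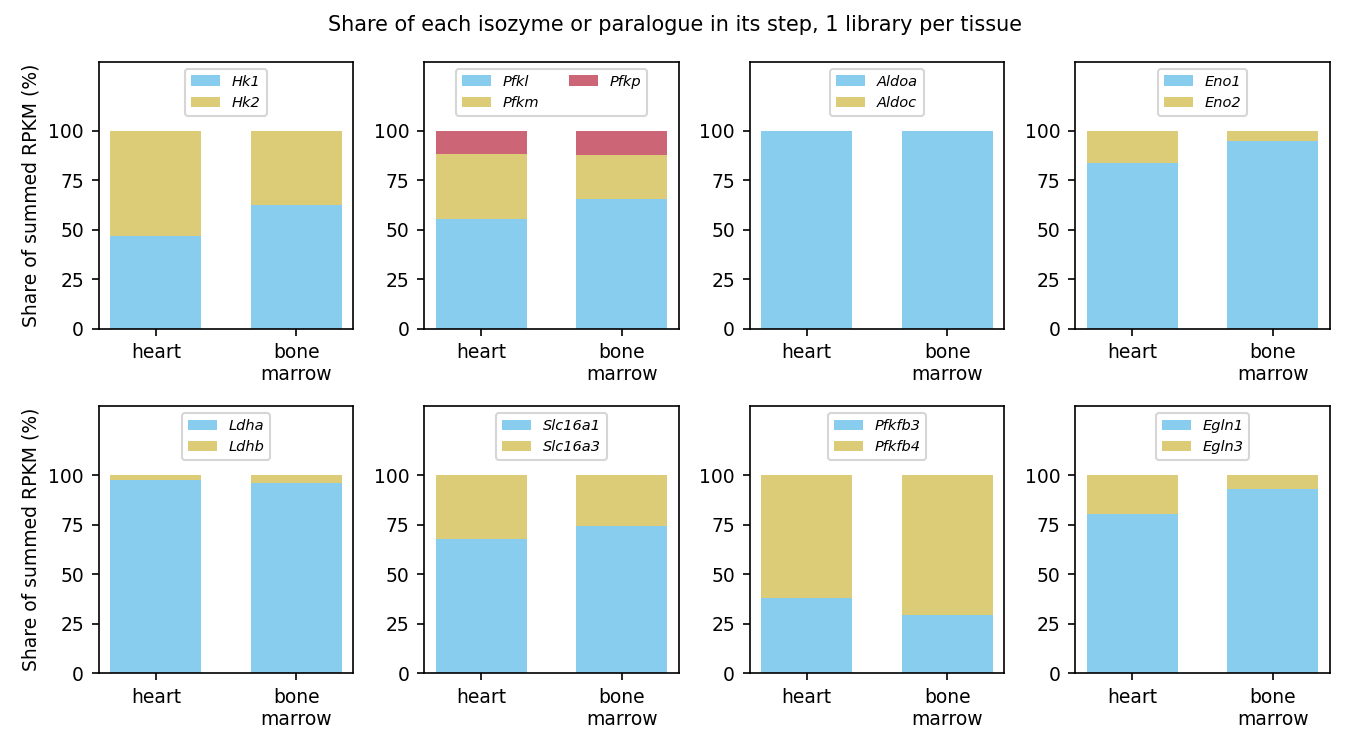
Share of the summed RPKM held by each isozyme or paralogue (y axis, percent), with the heart library left of the bone marrow library in each panel. Hk2, Pfkm, Eno2, Slc16a3 and Egln3 hold larger shares in heart, while Aldoa and Ldha hold over 95% in both libraries; each bar is 1 library with no replicate.

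The kinases that steer flux were scarce in both libraries and none reached 5 RPKM. Pdk1, which blocks the entry of pyruvate into the mitochondrion by inhibiting pyruvate dehydrogenase, stood at 4.14 RPKM in heart and 4.21 RPKM in bone marrow, and the interval of its ratio, 0.923 to 1.05, holds 1. Pfkfb3 and Pfkfb4 make and break down fructose 2,6-bisphosphate, the activator of phosphofructokinase. Pfkfb3 stood at 1.19 RPKM in heart and 1.40 RPKM in bone marrow, a ratio of 0.851 (0.757 to 0.957). Pfkfb4 stood at 1.94 RPKM in heart and 3.40 RPKM in bone marrow. None of the 3 had a log2 ratio above 0 on the deposited values. Known HIF targets include Pdk1 and Pfkfb4, and the part of HIF in these levels was not tested.

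Among the HIF regulators, Hif1a and Egln1 differed little and Egln3 more. Hif1a, which encodes the oxygen-regulated HIF subunit, stood at 80.5 RPKM in heart and 70.3 RPKM in bone marrow, from 30784 and 22371 reads, a ratio of 1.15 (1.13 to 1.17). Egln1, which encodes PHD2, the main prolyl hydroxylase acting on HIF-1alpha, stood at 18.5 RPKM in heart and 22.9 RPKM in bone marrow, a ratio of 0.810 (0.776 to 0.845). Egln3, which encodes PHD3 and is itself induced by HIF, stood at 4.60 RPKM in heart and 1.70 RPKM in bone marrow, from 795 and 244 reads. Its ratio was 2.71 (2.35 to 3.14) and its log2 ratio 1.05, but its level was under the 5 RPKM limit, so it did not count as higher in heart. Egln3 was 19.9% of the summed Egln1 and Egln3 RPKM in heart against 6.90% in bone marrow, a ratio of ratios of 3.35 (2.88 to 3.89).

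Of the 7 other hypoxia targets, Ak4, Ankrd37, Bnip3, Ddit4 and Mxi1 lay on the heart side, Ndrg1 lay on the bone marrow side and Car9 was too low to place. Among all 21620 genes above 0 in either library, 10103 had a log2 ratio above 0. Ak4, an adenylate kinase of the mitochondrial matrix, was the member counted as higher in heart, at 13.4 RPKM in heart and 3.75 RPKM in bone marrow, from 4027 and 942 reads. Its ratio was 3.56 (3.31 to 3.82) and its log2 ratio 1.59. Ankrd37, an ankyrin repeat gene known as a HIF target, stood at 2.97 RPKM in heart and 0.866 RPKM in bone marrow, from 297 and 72 reads, a ratio of 3.43 (2.65 to 4.51) under the 5 RPKM limit. Its gene model overlaps that of Ufsp2 on the other strand by 57 bases, and Ufsp2 stood at 11.7 RPKM in heart and 17.6 RPKM in bone marrow. Bnip3, which encodes a mitochondrial protein that promotes mitophagy, stood at 26.6 RPKM in heart and 19.0 RPKM in bone marrow, a ratio of 1.40 (1.33 to 1.48).

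Ddit4 and Mxi1 were higher in heart by less than 2-fold, and no difference was detectable for Car9. Ddit4, which encodes REDD1, an inhibitor of mTORC1 induced by hypoxia and other stresses, stood at 40.0 RPKM in heart and 27.9 RPKM in bone marrow, a log2 ratio of 0.50. Mxi1, which encodes a Max partner that opposes Myc, stood at 5.75 RPKM in heart and 3.65 RPKM in bone marrow, a log2 ratio of 0.54. Car9, which encodes carbonic anhydrase IX and is a widely used marker of hypoxia, was near the bottom of both libraries, with 14 reads (0.0937 RPKM) in heart and 10 reads (0.0804 RPKM) in bone marrow. The interval of its ratio was 0.481 to 2.93. Ndrg1 (chromosome 15, 66929321 to 66969640, minus strand), a stress gene induced by hypoxia, iron loss and differentiation, stood at 2.59 RPKM in heart and 15.2 RPKM in bone marrow. Its log2 ratio of -2.17 was the largest in size of the 33 and was undercut by 2.59% of the 7659 genes.

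**Figure D4:**
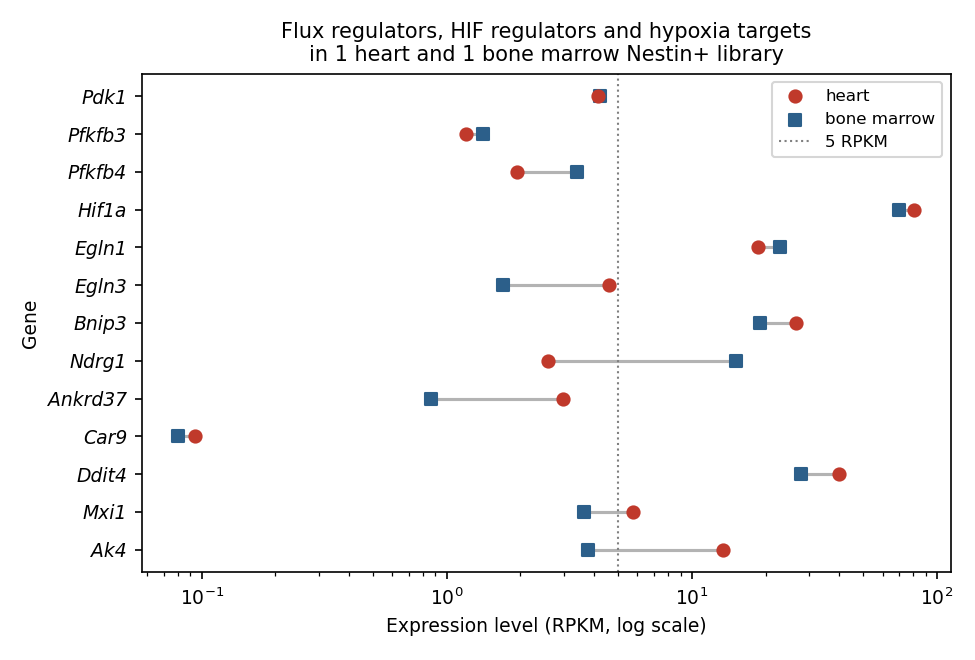
RPKM (x axis, log scale) of the 3 flux regulators, 3 HIF regulators and 7 other hypoxia targets (y axis), with a circle for the heart library and a square for the bone marrow library. Ak4, Egln3 and Ankrd37 lie furthest to the heart side and Ndrg1 furthest to the bone marrow side, with the dotted line at 5 RPKM.

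Other genes of these pathways were read from lists of 41 symbols each, all found. In the glycolysis and pyruvate list, 0 of 18 genes that reached 5 RPKM were called higher in heart, against 7.56% of all genes at that level, 3 (16.7%) were higher in bone marrow, against 9.51%, and 15 were neither. Its median log2 ratio was -0.40 over the 18 genes that reached 5 RPKM, beside -0.15 over all genes at that level. It was -0.12 over all 41 and -0.37 over the 26 genes at or above 1 RPKM, beside -0.11 over the 11355 genes at that level. The largest difference was in Pdk4, a pyruvate dehydrogenase kinase induced by fasting and fatty acids, at 0.751 RPKM in heart and 62.4 RPKM in bone marrow, from 171 and 11822 reads. Its log2 ratio was -5.18, while Pdk1 did not differ beyond counting error. Eno3, the muscle enolase, stood at 2.51 RPKM in heart and 14.3 RPKM in bone marrow, a log2 ratio of -2.13, so Eno1 and Eno3 lay on the bone marrow side and Eno2 on the heart side. Galm, which encodes the mutarotase that interconverts the forms of aldose sugars, had a log2 ratio of -1.30.

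In the list of other HIF pathway genes the shares called were near the background. Of 31 genes that reached 5 RPKM, 2 (6.45%) were higher in heart, against 7.56% of all genes at that level, 4 (12.9%) were higher in bone marrow, against 9.51%, and 25 were neither. The median log2 ratio was 0.05 over the 31 genes that reached 5 RPKM, beside -0.15 over all genes at that level. It was -0.07 over the 35 genes at or above 1 RPKM, beside -0.11 over all genes at that level, and 0.05 over all 41. The 2 in heart were Zfp36l1, which encodes an mRNA decay factor, and Errfi1, which encodes an inhibitor of the EGF receptor. Zfp36l1 stood at 85.8 RPKM in heart and 16.0 RPKM in bone marrow, and Errfi1 at 23.8 RPKM in heart and 10.8 RPKM in bone marrow. The genes in bone marrow included Tfrc, the transferrin receptor gene, Cited2, which encodes a protein that limits HIF activity, and P4ha2, a collagen prolyl hydroxylase gene. Their log2 ratios were -2.35, -1.91 and -1.01, and that of P4ha2 lay closest to the limit. Vegfa, the vascular growth factor gene and a classical HIF target, stood at 34.7 RPKM in heart and 36.1 RPKM in bone marrow.

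Cell division genes and Myc itself were higher in bone marrow. Of 20 cell division genes, all of which reached 5 RPKM, 19 (95%) were higher in bone marrow, against 9.51% of the 7659 genes at that level. In heart 0 were higher, against 7.56%. Their median log2 ratio was -1.70, beside -0.15 over the 7659 genes, and Tyms was the exception at 0.64. This list was chosen with earlier results of these data known, so its shares are a description only. Myc, whose product drives many glycolytic genes, stood at 6.00 RPKM in heart and 22.6 RPKM in bone marrow, a log2 ratio of -1.75. The other 3 genes of the Myc list were not past 2-fold and lay on both sides, with log2 ratios of -0.70 for its partner Max, 0.16 for Mnt, whose product opposes Myc, and 0.25 for Mycn, which was below 1 RPKM in both libraries. The part of cell division or Myc in the levels of the glycolytic enzymes was not tested.

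**Figure D5:**
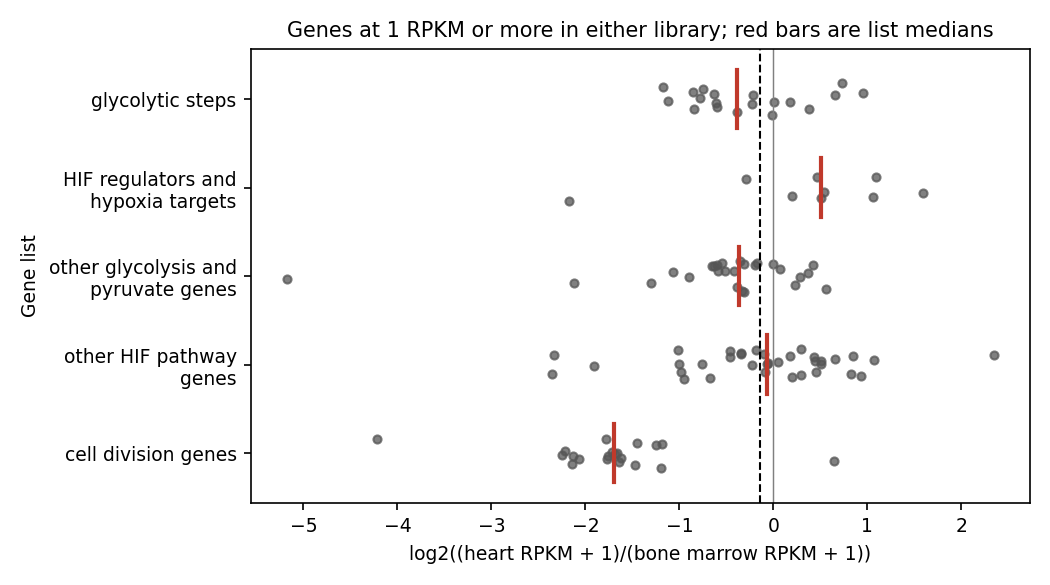
Log2 ratios (x axis, log2 of heart RPKM + 1 over bone marrow RPKM + 1) of genes that reached 1 RPKM, 1 point a gene, by list (y axis), with list medians as red bars. The cell division genes lie furthest left with a median of -1.70, and the HIF regulators and hypoxia targets lie right of the dashed line, the median of -0.14 over 6049 genes, except Ndrg1 and Egln1.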

How the data were processed

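Total RNA (1 ug) of passage 10 cells was made into 1 standard Illumina library per tissue, per the labels' protocols. The values are the authors' deposited RPKM (per the file headers) for 49585 rows with chromosome and region. Not given in the sources used here are the aligner, counter and use of strand, and reads of overlapping genes cannot be told apart; 6 members overlap a gene at or above 1 RPKM on the other strand (Pfkm, Pfkp, Tpi1, Gapdh, Hif1a and Ankrd37). The submitters' processing notes name mm8, but 45149 rows (91.1%) match a GENCODE M21 model on GRCm38 in position and strand, so coordinates are taken as GRCm38.

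Where rows shared a symbol, the one with the highest mean was used. Whole reads were recovered from RPKM and exon-union lengths: 12288 of 14247 genes (86.2%) came out whole in both libraries within 0.02 reads. Reads and exact conditional (Clopper-Pearson) 95% intervals are given for the 22 members where they did. The other 11 have no interval: Pfkm, Aldoa, Pgam1, Ndrg1, Ddit4 and Mxi1 had no gene model at the same position, and Pfkl, Pfkp, Tpi1, Gapdh and Pfkfb4 did not come out whole. Intervals of ratios of ratios use the log normal approximation to 4 read counts. Reads carried no molecular identifiers, so they are not independent molecules and intervals cover counting error only. No p-value was computed.

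The members and lists were chosen with earlier results of these data known. Named genes are all members and, from each other list, the genes past 2-fold, up to 6 per direction, except that of the cell division list only the exception is named. Nes, Ptprc, Tyms, Vegfa, Max, Mnt, Mycn, Thy1, Eng, Nt5e, Col1a2, Ufsp2 and Eno1b were named after their values were seen. So were the markers Cd53, Cd14, Lyz2, Pdgfra, Pdgfrb and Cd44. A gene that the rule takes is not reported here. Medians of members take all of them. Alternatives were pseudocounts of 0.1 and 5, floors of 1, 20 and 0 RPKM, a 4-fold limit, summed rows, named copies added, whole reads, and 4 scalings (median ratio; upper quartile; log ratios averaged after trimming; RPKM sum after removing mitochondrial genes and the top 20). Another scaling, to equal RPKM sums, was added after seeing the data. Promoters come from RefSeq on GRCm38.p6, taking for each gene the start nearest the 5′ end of the deposited row. Software was matplotlib 3.10.9, scipy 1.17.1, pandas 2.3.3 and numpy 2.4.6 under Python 3.11.15, and the scripts were tested on simulated data.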

Additional observations from a re-analysis of the deposited data

How the results depend on the processing

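Each tissue has 1 library, so no replicate could be left out, and no paired analysis was possible because the groups share fewer than 2 replicate numbers. Of the 33 members, 31 kept the sign of their log2 ratio in all 12 alternatives and 26 kept their call. Only the 5 scalings could change a sign. A floor, a fold limit or a pseudocount leaves the sign as it is, and summing rows left member values unchanged. All 5 scalings raised the heart values, by factors of 1.05 to 1.11, so only members slightly below 0 could change sign. Gpi1 and Pdk1, both near 0, took the other sign under the 5 scalings. The calls that changed were those of Slc2a1, Pgam1, Eno1, Egln3, Ndrg1, Ankrd37 and Ak4, and the cause was not tested beyond the construction of each alternative. Members higher in heart numbered 3 with a floor of 1 RPKM or none, where Egln3 and Ankrd37 join Ak4, 0 with a floor of 20 RPKM or a 4-fold limit, 3 with scaling by the median ratio or by the RPKM sum after removing mitochondrial genes and the top 20, and 2 under each of the other 3 scalings. Members higher in bone marrow numbered 1 with a 4-fold limit. Over all genes, those higher in heart numbered 579 as deposited and 704 with scaling by the median ratio. They numbered 695 with scaling by the RPKM sum after that removal, and 634 to 653 under the other 3 scalings. Counts over all genes for the floors and the 4-fold limit follow.

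The median of the step and transport genes was -0.54 with a pseudocount of 0.1. That of the HIF regulators and targets was 0.36 with a pseudocount of 5, 0.63 with scaling by the median ratio and 0.62 with scaling by the RPKM sum after that removal. Over all genes, a pseudocount of 5 gave 383 in heart and 424 in bone marrow, a floor of 20 RPKM gave 263 in heart and 315 in bone marrow, and a 4-fold limit gave 257 in heart and 229 in bone marrow, while a floor of 1 RPKM or none gave 883 in heart. Genes of the wider glycolysis list higher in bone marrow numbered 1 at a floor of 20 RPKM, and its median was -0.28 with a pseudocount of 0.1. Genes of the wider HIF list higher in heart numbered 4 with a pseudocount of 0.1 and 1 with a pseudocount of 5 or a 4-fold limit, and those higher in bone marrow numbered 2 at a floor of 20 RPKM or a 4-fold limit.

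Shares of whole reads, which are not divided by length, were 44.1% in heart and 29.5% in bone marrow for Hk2, 1.20% in heart and 1.93% in bone marrow for Ldhb, 36.5% in heart and 29.4% in bone marrow for Slc16a3, 15.5% in heart and 5.20% in bone marrow for Egln3, and 14.5% in heart for Eno2. Without a pseudocount, on whole reads, the differences of log2 ratios were -0.69 for Ldhb minus Ldha, 0.47 for Slc16a3 minus Slc16a1 and 1.74 for Egln3 minus Egln1. Adding the named copies or summing rows moved no share by more than 1 percentage point. Depth limits Car9 and Aldoc, which rest on 14 and 2 reads in heart and on 10 and 26 in bone marrow.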
